A study of Bos taurus with 15 samples.

Results

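The genes described here encode 10 heat shock proteins and chaperones of bovine blastocysts: HSPA1A, HSPA8, HSPA5, HSPA9, HSP90AA1, HSP90AB1, HSPB1, HSPD1, HSPE1 and DNAJB1. They were chosen by symbol, and all 10 were found among the 10832 genes of the filtered count table (34773 genes before filtering). The filter therefore removed none of them. The embryos were produced in vitro and cultured without oviductal extracellular vesicles (oEVs), which was the control (Co), with oEVs used fresh (FeEV) or with oEVs that had been frozen (FoEV). All 3 groups shared the in vitro production, the culture and the blastocyst stage at day 7 according to the sample labels, whereas the study's text counts a day more of culture. The oEVs came from oviducts of postovulatory cows collected at a slaughterhouse, and the fresh and frozen preparations were split from the same oviducts. Each library was made from 1 ng of total RNA of a pool of 8 to 14 blastocysts, with 5 pools per treatment chosen by the study for the quality of their RNA. The values are averages over whole embryos, so fewer cells of a type cannot be told apart from less RNA per cell.

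Chaperones bind unfolded or partly folded proteins and let them fold, refold or reach the compartment where they work. The HSP70 proteins hold short stretches of a client in cycles of ATP binding and hydrolysis that are started by J proteins, and the HSP90 proteins act later, on clients such as kinases and steroid receptors. The HSPD1 and HSPE1 proteins form the folding chamber of mitochondria, and small heat shock proteins such as HSPB1 keep unfolded proteins from aggregating. Some of these genes are expressed at all times, whereas HSPA1A and DNAJB1 are classical targets of the heat shock factor HSF1, and HSPA1A is among the first genes that the mouse embryo transcribes. Preimplantation embryos in culture meet changes in temperature, oxygen and medium, and HSP70 transcripts are often read there as a sign of stress. Proteins of the HSP70 family are also common in extracellular vesicles, but the libraries measured embryo RNA and no protein.

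The libraries held 2136713 to 4058887 counted reads, with at least 3392613 in each FoEV library and at most 2977004 in each Co library. The chaperone genes together took 0.797% to 1.097% of the filtered counts of a library. Markers of the blastocyst lineages were present, with all 7 trophectoderm and all 5 inner cell mass genes in the filtered table and SOX17 the only 1 of 4 hypoblast genes outside it. Of the markers of other cells, PAX8 (oviduct epithelium) and CYP19A1 (cumulus cells) passed the filter, whereas OVGP1 and FOXJ1 of the oviduct stayed at or below 1.48 CPM (counts scaled to a common library total) and 0 of 3 blood genes passed it. HBB was at 0 in every library, HBA had 38 reads over the Co libraries, 3 over FeEV and 6 over FoEV, and PTPRC had 1, 0 and 2. The summed level of the trophectoderm markers ran from 6299 to 8505 CPM in Co, 6978 to 10527 in FeEV and 8179 to 10985 in FoEV. The sum of the inner cell mass markers ran from 417 to 549 CPM in Co, 398 to 536 in FeEV and 390 to 593 in FoEV. Single markers did not all follow the sum of their list. NANOG of the inner cell mass had a mean of 79.7 CPM in Co, 51.8 in FeEV and 44.5 in FoEV (log2 fold change in FoEV vs. Co -0.84, unadjusted p = 0.00641 in edgeR). The other inner cell mass genes did not share this difference: POU5F1 was at 0.21, KLF4 at 0.05, SOX2 at -0.03 and DPPA3 at -0.06 in FoEV vs. Co. KRT18 of the trophectoderm had 2661, 3197 and 3880 CPM (0.55, unadjusted p = 0.000347 in edgeR). It went the same way as its list, whose other genes ran from 0.09 (TEAD4) to 0.34 (GATA2). The part of these markers in the chaperone differences was not tested.

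No chaperone gene passed the test in any comparison. For HSPA1A, the heat-inducible HSP70 gene, single pools ran from 59.7 to 185 CPM within FoEV, the treatment with the largest SD. Its treatment means ran from 75.2 to 107 CPM. Means of 5 pools vary less than single pools, so these ranges are a description only. Levels are given as CPM after scaling by TMM factors, and differences as log2 fold changes with their standard error (SE) from the quasi-likelihood fit of edgeR. For FoEV treatment vs. Co, the number of chaperone genes was 0 of 10 with a Benjamini-Hochberg adjusted p under 0.05 in edgeR (0.00923% of all genes tested did, which is 1 gene), and 0 with an unadjusted p under 0.05 (15.1% of all genes). With the Wald test of DESeq2, 0 of the 10 passed the adjusted threshold in each of the 3 comparisons. Of all genes, 138 passed it in FoEV vs. Co, 1 in FeEV vs. Co and 3 in FoEV vs. FeEV. HSP90AB1 had an unadjusted p of 0.0298 in FoEV vs. Co with that test. In the comparison FeEV treatment vs. Co, 0 of 10 passed in edgeR (background 0.0%), and 0 had an unadjusted p under 0.05 (4.15% of all genes). Over the other settings of that comparison, HSPA1A had an unadjusted p of 0.0158 with the robust dispersion test (adjusted p = 0.656 in edgeR). HSPB1 had one of 0.0340 without the libraries of description number 4 (adjusted p = 0.9999 in edgeR) and of 0.0442 without FeEV replicate 3 (adjusted p = 0.999 in edgeR). In the comparison FoEV vs. FeEV treatment, 0 of 10 passed in edgeR (background 0.0%), and HSPB1 was the 1 gene with an unadjusted p under 0.05 (8.52% of all genes). The median log2 fold change of the chaperone genes was -0.06 in FoEV vs. Co, -0.07 in FeEV vs. Co and -0.02 in FoEV vs. FeEV, beside medians of 0.01, 0.00 and 0.01 over all genes tested. Of the 10, 3 were higher and 7 lower in FoEV vs. Co (52.3% of all genes were higher), 2 were higher and 8 lower in FeEV vs. Co (51.0%), and 4 were higher and 6 lower in FoEV vs. FeEV (51.8%), and the comparisons share libraries. No gene had non-overlapping treatments in any comparison (2.6%, 0.951% and 1.5% of all genes did, in the same order). Since the labels describe the libraries as separate pools, these p-values measure the spread between pools.

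**Figure D1:**
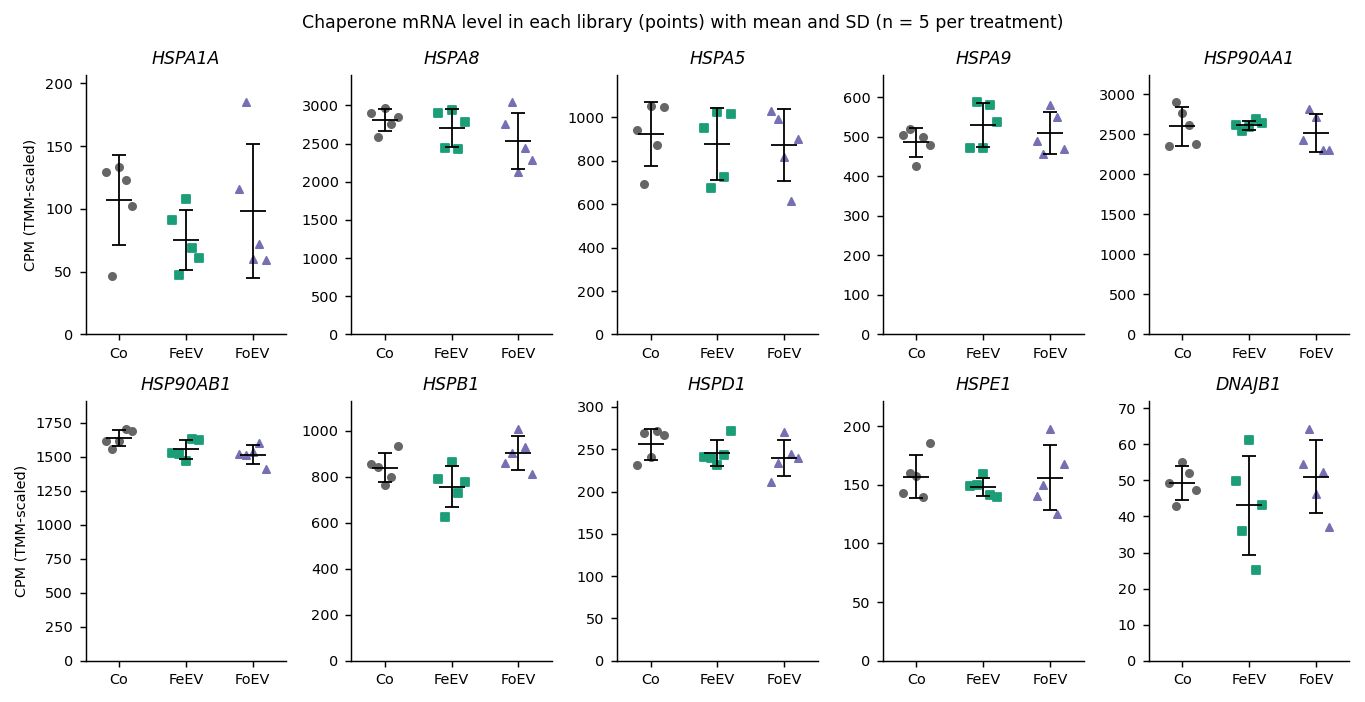
Level of each chaperone gene in the 15 libraries, as TMM-scaled CPM on an axis from 0 (points: libraries, in the order of their replicate number, horizontal bar: treatment mean, error bars: SD, n = 5). The treatments overlap for all 10 genes, HSPA1A is spread from 46.9 to 185 CPM and HSP90AB1 only from 1406 to 1705 CPM.

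HSPA1A encodes the HSP70 protein that cells make in large amounts after heat or other stress. The reference annotation lists HSPA1B, its near-identical neighbour, under the same gene, so the counts cannot be split between the copies. In Co, its level in replicates 1 to 5 was 129, 46.9, 133, 123 and 102 CPM. In FeEV, it was 91.2, 47.2, 108, 69.2 and 60.6 CPM. In FoEV, it was 116, 185, 60.3, 72.4 and 59.7 CPM. The FoEV pools thus held both the highest value and 2 of the lower values of the 15 libraries, Co held the lowest, and the treatments overlapped. The lowest count behind a value was 127 reads, for which counting alone gives a coefficient of variation of 8.87%, whereas the highest level was 3.94 times the lowest. The mean of the Co pools was 107 ± 35.7 CPM, that of the FeEV pools 75.2 ± 24.2 and that of the FoEV pools 98.6 ± 53.4 (SD, n = 5). In FoEV vs. Co its log2 fold change was -0.11 (SE 0.37, 95% interval -0.91 to 0.69, adjusted p = 0.912 in edgeR). It was -0.50 in FeEV vs. Co (SE 0.38, 95% interval -1.32 to 0.31, unadjusted p = 0.205 in edgeR). With the robust dispersion test of edgeR, HSPA1A was at -0.60 in FeEV vs. Co (unadjusted p = 0.0158, adjusted p = 0.656) and at -0.41 in FoEV vs. Co (unadjusted p = 0.110, adjusted p = 0.397). The quasi-likelihood interval in FeEV vs. Co includes a level lower by 1 log2 unit as well as no difference. The FoEV vs. Co value depended on FoEV replicate 2, without which it was -0.47. It was 0.01 without FoEV replicate 3 and 0.02 without FoEV replicate 5.

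HSPA8, the HSP70 protein that cells make at all times, also strips clathrin from vesicles. Its level in Co was 2897, 2591, 2966, 2757 and 2853 CPM in replicates 1 to 5. The FeEV pools had 2899, 2447, 2946, 2435 and 2789 CPM. The FoEV pools had 2759, 3040.0, 2128, 2444 and 2284 CPM. In 3 FoEV pools the level lay below every Co pool, but FoEV replicate 2 was the highest of all 15. The log2 fold change in FoEV vs. Co was -0.15 (SE 0.09, 95% interval -0.35 to 0.04, adjusted p = 0.452 in edgeR), the smallest adjusted p of the 10 genes in that comparison. Without FoEV replicate 2 it was -0.23, with an unadjusted p of 0.0224 and an adjusted p of 0.201 in edgeR (0.201 to 0.633 over 25 other settings). In FeEV vs. Co it was -0.06 (SE 0.09).

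DNAJB1 is the main J protein that sends clients to the cytosolic HSP70 proteins, and its gene is heat-inducible like HSPA1A. Its level was 49.2, 42.8, 55.1, 52.2 and 47.2 CPM in Co. It was 49.8, 36.0, 61.3, 25.05 and 43.3 CPM in FeEV. It was 54.6, 64.3, 46.3, 52.4 and 37.1 CPM in FoEV. The Co pools were the closest to each other (49.3 ± 4.70 CPM), and FeEV replicate 4 stood lowest with 55 reads, where counting alone gives a coefficient of variation of 13.5%. Its log2 fold change was 0.05 in FoEV vs. Co (SE 0.18), -0.18 in FeEV vs. Co (SE 0.18) and 0.23 in FoEV vs. FeEV (SE 0.18), with an adjusted p of 0.716 in edgeR for the last. Leaving out FoEV replicate 2 gave -0.05 in FoEV vs. Co. Leaving out FeEV replicate 3 gave 0.39 in FoEV vs. FeEV, with an unadjusted p of 0.0330 and an adjusted p of 0.568 in edgeR (0.546 to 0.903 over 25 other settings).

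HSPA5, also known as BiP, is the HSP70 protein of the endoplasmic reticulum, and HSPA9, or mortalin, is that of mitochondria. HSPA5 had 940.3, 695, 1051, 873 and 1046 CPM in Co, 949.8, 674, 1025, 726 and 1016 CPM in FeEV, and 1030.4, 990.4, 819, 616 and 900.1 CPM in FoEV. The lowest pools were Co replicate 2, FeEV replicate 2 and FoEV replicate 4, and the ranges of the treatments overlapped almost fully. Its log2 fold change was -0.08 in FoEV vs. Co (SE 0.15) and -0.07 in FeEV vs. Co (SE 0.15). HSPA9 had 505, 519.9, 427, 499.7 and 479 CPM in Co, 472, 587, 473, 580.2 and 538 CPM in FeEV, and 488, 457, 581, 551 and 470.0 CPM in FoEV. In 3 FeEV pools and 2 FoEV pools it lay above every Co pool, and in no pool below Co replicate 3. Its log2 fold change was 0.12 in FeEV vs. Co (SE 0.09, 95% interval -0.07 to 0.31) and 0.07 in FoEV vs. Co (SE 0.09), so it was the 1 gene besides HSP90AA1 with a positive difference in FeEV vs. Co.

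The cytosolic HSP90 proteins are encoded by HSP90AA1, the more inducible form, and HSP90AB1, the constitutive form. HSP90AB1 varied least of the 10 genes. Its level was 1613, 1555, 1615, 1705 and 1688 CPM in Co, 1527, 1517, 1469, 1629 and 1623 CPM in FeEV, and 1517, 1513, 1532, 1597 and 1406 CPM in FoEV. In 4 FoEV pools and 3 FeEV pools it was below every Co pool, and FoEV replicate 4 and FeEV replicates 4 and 5 lay within the Co range. The log2 fold change was -0.11 in FoEV vs. Co (SE 0.07, 95% interval -0.26 to 0.03, adjusted p = 0.455 in edgeR) and -0.07 in FeEV vs. Co (SE 0.07). HSP90AA1 ranged from 2350.3 to 2899 CPM in Co, from 2537 to 2688 CPM in FeEV and from 2307 to 2812 CPM in FoEV. The FeEV pools lay within the Co range and close together (SD 55.8 CPM, against 239 in Co and 235 in FoEV). The log2 fold change of HSP90AA1 was 0.01 in FeEV vs. Co (SE 0.08) and -0.05 in FoEV vs. Co (SE 0.08).

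HSPD1 (Hsp60) and HSPE1 (Hsp10) encode the barrel and the lid of the mitochondrial chaperonin and are transcribed from a shared promoter in mammals. Mean levels of HSPD1 were 256 ± 18.4 CPM in the Co pools, 246 ± 15.4 in the FeEV pools and 240.0 ± 21.1 in the FoEV pools (SD, n = 5). HSPE1 had 157 ± 18.3 CPM in Co, 148 ± 7.73 in FeEV and 156 ± 27.8 in FoEV. Their log2 fold changes in FoEV vs. Co were -0.09 for HSPD1 (SE 0.08, 95% interval -0.27 to 0.08) and -0.01 for HSPE1 (SE 0.11, 95% interval -0.23 to 0.22). For HSPE1 the highest pool of all, FoEV replicate 3 with 198 CPM, and the lowest, FoEV replicate 4 with 125.2 CPM, were from the same treatment.

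HSPB1, or Hsp27, is a small heat shock protein that binds unfolding proteins without ATP and is linked to actin and keratin filaments. Among the 10 genes it differed most from FeEV to FoEV relative to its spread. Its level was 854, 844, 765, 798 and 934 CPM in Co. It was 790.1, 624, 863, 729.6 and 776 CPM in FeEV. It was 859, 902, 1009, 930.5 and 813 CPM in FoEV. FoEV replicates 2, 3 and 4 lay above every FeEV pool, FeEV replicates 2 and 4 lay below every Co pool, and the treatments overlapped. The mean was 903 ± 74.2 CPM in FoEV and 757 ± 88.4 CPM in FeEV (SD, n = 5), which is a log2 fold change of 0.25 (SE 0.09, 95% interval 0.07 to 0.44, unadjusted p = 0.00973, adjusted p = 0.496 in edgeR). The difference thus did not pass the adjusted threshold. Over 25 other settings its log2 fold change stayed between 0.19 and 0.31, with an adjusted p from 0.304 to 0.824, and it was above 0 in all of them. Against Co, HSPB1 was at 0.11 in FoEV (SE 0.09) and at -0.15 in FeEV (SE 0.09), with an adjusted p of 0.601 in FoEV vs. Co in edgeR.

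**Figure D2:**
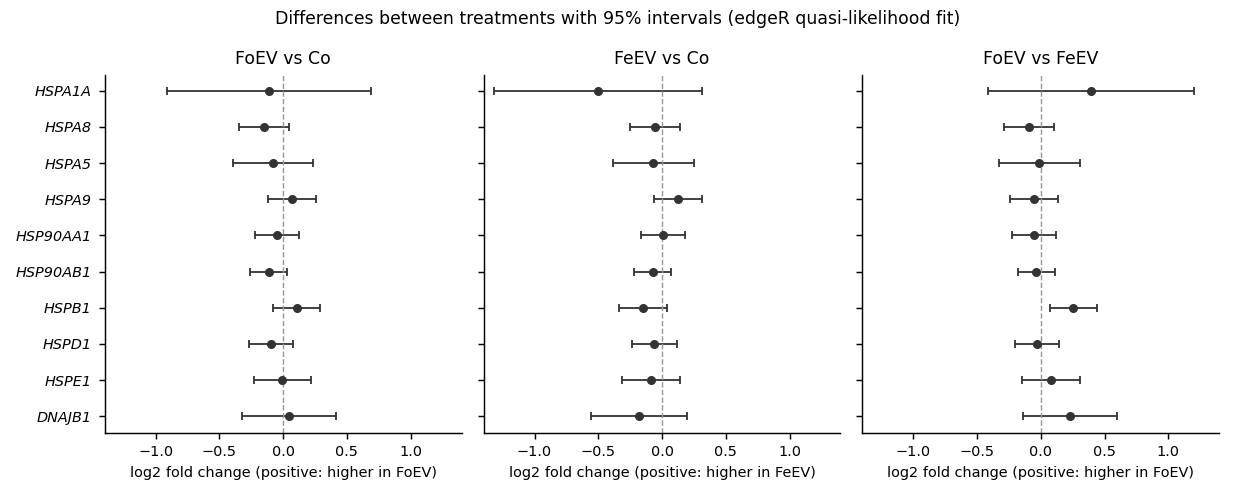
Log2 fold change of each chaperone gene in the 3 comparisons (points) with 95% intervals from the edgeR quasi-likelihood fit, positive where the first treatment named is higher. All intervals include 0 except that of HSPB1 in FoEV vs. FeEV (0.07 to 0.44), and those of HSPA1A are the widest.

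How far a gene varied between pools of 1 treatment was measured as the SD of log2 CPM around the treatment means. This SD was 0.606 for HSPA1A, above that of 95.8% of all filtered genes. It was 0.335 for DNAJB1 (72.5%) and 0.276 for HSPA5 (58.3%), whereas the median over all genes was 0.247. The other 7 genes lay below that median, from 0.178 for HSPE1 down to 0.0620 for HSP90AB1, which was above only 0.0554% of all genes. The SDs of HSP90AA1 and HSPD1 were 0.110 and 0.108. DNAJB1 and HSPA1A also had the fewest reads of the 10 genes, whereas HSP90AB1 had 3576 to 6553 reads per library. The shares are over genes of all read counts, not over genes with similar counts. The part of counting error in these shares and in this order was not tested. Levels of different genes were not compared, because transcript lengths were not at hand.

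Whether the chaperone genes varied together between pools was examined with the deviations of the 15 libraries from their treatment means. The 4 pairs examined have textbook relations and were chosen with earlier results of these data known. The permutations take the 15 libraries as independent of each other, which the labels do not settle. HSPA1A and HSPA8 varied together (Pearson's r = 0.850, permutation p = 0.00029, Benjamini-Hochberg adjusted p = 0.00116 over the 4 pairs, Spearman's rho = 0.839). Without the 2 libraries farthest from the median of HSPA1A, r was 0.818 (adjusted permutation p = 0.0418). HSPA1A and DNAJB1 had r = 0.643 (permutation p = 0.00534, adjusted p = 0.0107, rho = 0.825). Without the 2 farthest libraries that relation had r = 0.627 and an adjusted permutation p of 0.157, whereas rho was 0.758 with an adjusted permutation p of 0.0353, so Pearson's r lost its call and rho kept it. For HSPD1 and HSPE1, r was 0.336 (adjusted permutation p = 0.432, rho = 0.200), and for HSP90AA1 and HSP90AB1 it was -0.0524 (adjusted permutation p = 0.861, rho = 0.0964).

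The remaining pairs are given as a description. HSPA8 and DNAJB1 had r = 0.776, and HSPA5, the HSP70 of the endoplasmic reticulum, had r = 0.661 with HSPA1A and r = 0.674 with HSPA8. HSPA9, the mitochondrial HSP70, went the other way, with r = -0.653 with HSPA1A, -0.753 with HSPA8, -0.751 with HSPA5 and -0.587 with DNAJB1. The points of all pairs share their libraries and their scaling, and CPM values of abundant genes are shares of the same total. Over all filtered genes, the most similar deviations were those of MRTFB (r = 0.868), MAGEH1 (r = 0.865) and LCN2 (r = 0.858) for HSPA1A. For HSPA8 they were those of MIPOL1 (r = 0.911), LOC112445041 (r = 0.898) and L1CAM (r = 0.897), and for HSPD1 those of PRMT7 (r = 0.893), NADK2 (r = 0.877) and PDP1 (r = 0.862), each over 15 libraries. MAGEH1, LCN2 and LOC112445041 had treatment means of at most 6.90 CPM, so their values rest on few reads. All of these genes are the extremes of a search over the filtered table, where high r can arise by selection alone. Their r values were not tested.

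**Figure D3:**
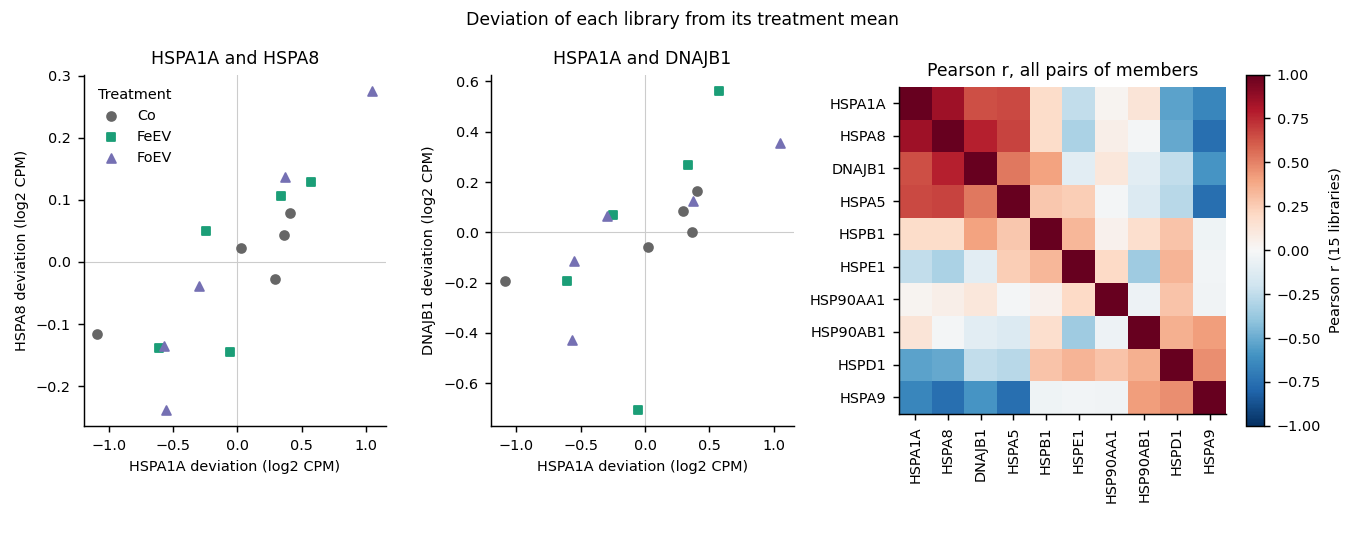
Left and middle: deviation of each library from its treatment mean in log2 CPM for HSPA1A (x axis) against HSPA8 and DNAJB1 (y axis), with a point per library. Right: Pearson's r for all pairs of the 10 genes over 15 libraries, from blue (-1) to red (1). HSPA1A, HSPA8, DNAJB1 and HSPA5 form a block with r from 0.527 to 0.850, and HSPA9 is negative with each of them.

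The sample descriptions carry a library number of their own, from 1 to 7, whose meaning is not stated. The libraries numbered 4 (Co replicate 3, FeEV replicate 3 and FoEV replicate 2) were singled out after the values had been seen. In each of the 3 treatments, library 4 had the highest level of HSPA1A (133, 108 and 185 CPM in Co, FeEV and FoEV), of HSPA8 (2966, 2946 and 3040.0 CPM) and of DNAJB1 (55.1, 61.3 and 64.3 CPM). Of all filtered genes, 1.19% had their highest level in library 4 of every treatment. For HSPA5, library 4 was the highest in Co and FeEV and next to the highest in FoEV. For HSPA9 it was the lowest in Co and FoEV and next to the lowest in FeEV. For HSP90AB1 it was not the highest in any treatment. Without the 3 libraries, r of HSPA1A and HSPA8 was 0.727 (adjusted permutation p = 0.0283), but rho was 0.706 with an adjusted permutation p of 0.0674. For HSPA1A and DNAJB1, r was 0.452 (adjusted permutation p = 0.197) and rho 0.664 (adjusted permutation p = 0.0674). Between libraries of the same number, HSPB1 was higher in FoEV than in FeEV in 4 of 4 pairs, by 0.06 to 0.47 in log2 CPM, and 8.14% of all filtered genes were higher in all 4. In FoEV vs. Co, HSPA9 was higher in 3 of 3 pairs (0.10 to 0.22), as were 19.0% of all genes. HSPA5 (-0.76 to -0.09), HSP90AB1 (-0.15 to -0.08) and HSPD1 (-0.12 to -0.01) were lower in 3 of 3, as were 17.3% of all genes. In FeEV vs. Co, HSPD1 (-0.16 to -0.06) and HSP90AB1 (-0.14 to -0.03) were lower in 3 of 3, as were 13.2% of all genes.

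**Figure D4:**
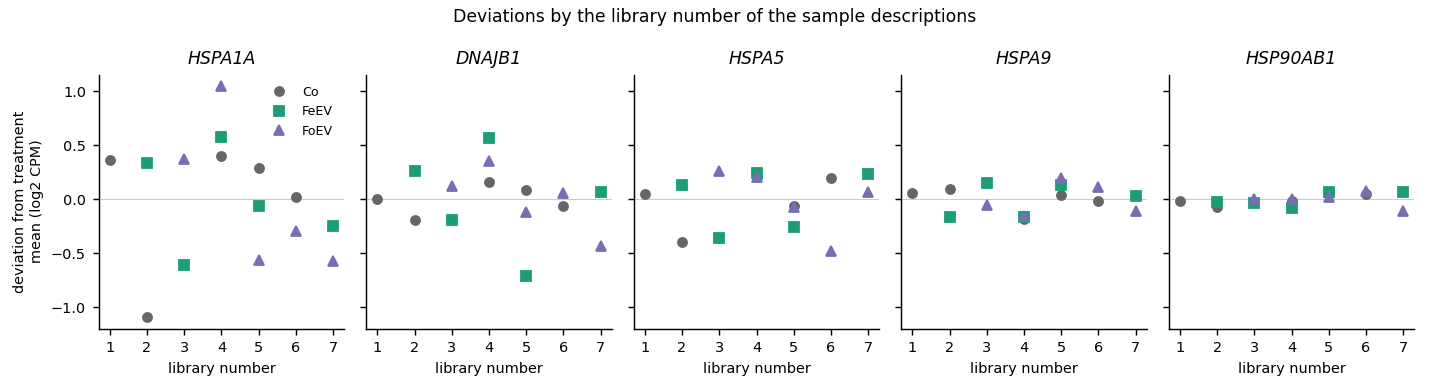
Deviation of each library from its treatment mean in log2 CPM (y axis) by the library number in the sample descriptions (x axis), for 5 of the chaperone genes. At number 4, all 3 treatments lie above 0 for HSPA1A, DNAJB1 and HSPA5 and below 0 for HSPA9, whereas HSP90AB1 lies near 0 throughout.

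The partners of these proteins were taken from a list of 106 further protein folding genes, of which 93 were in the filtered table. None passed the adjusted threshold in the quasi-likelihood test of edgeR in any comparison (0 of 93 in each). DESeq2 called 1 in FoEV vs. Co, beside 138 of all genes, and 0 in the other comparisons. In FoEV vs. Co, 9 of the 93 were higher and 10 lower at an unadjusted p under 0.05, beside 8.18% and 6.88% of all genes. The groups did not overlap for 4 of the 93 (2.6% of all genes). The median log2 fold change of the list was 0.02. In FeEV vs. Co, 0 were higher and 2 lower at an unadjusted p under 0.05 (1.83% and 2.32% of all genes), and in FoEV vs. FeEV 4 were higher and 2 lower (4.83% and 3.69%).

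J proteins made up 35 of the 93 genes. In FoEV vs. Co, 1 of them was higher and 7 were lower at an unadjusted p under 0.05 in edgeR (8.18% and 6.88% of all genes). DNAJB9, a J protein of the endoplasmic reticulum that works with HSPA5, had the smallest p of the list. It had 64.5, 43.5, 65.5, 62.2 and 68.1 CPM in Co, 42.6, 40.1, 46.9, 34.6 and 48.3 CPM in FeEV, and 38.4, 42.4, 39.7, 28.7 and 42.0 CPM in FoEV. All FoEV pools lay below all Co pools (2.6% of all genes had no overlap between FoEV and Co), and the FeEV pools lay below all Co pools but replicate 2. DNAJB9 had a log2 fold change of -0.66 in FoEV vs. Co (SE 0.13, adjusted p = 0.0578 in edgeR) and -0.51 in FeEV vs. Co (SE 0.13, adjusted p = 0.903 in edgeR), and both use the same Co pools. Over 25 other settings the adjusted p in FoEV vs. Co ran from 0.000212 to 0.193 and was under 0.05 in 6. It was 0.0312 in edgeR without Co replicate 2, 0.0410 in edgeR without FoEV replicate 2 and 0.00214 with DESeq2. HSPA5 itself, its partner, differed by -0.08 in the same comparison. With robust dispersions in edgeR and its own thresholds, the study lists DNAJB9 as downregulated in both treatments against Co. It lists HSPA13 as downregulated in FoEV vs. Co.

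In FoEV vs. Co, the genes given here that work with HSPA5 or beside it were picked by a small p or after their values had been seen. Their directions therefore do not describe the compartment as a whole. DNAJC10, a J protein of the endoplasmic reticulum that reduces disulfide bonds, had 95.9 ± 15.9 CPM in FoEV and 122 ± 19.2 in Co (log2 fold change -0.34, SE 0.12, adjusted p = 0.200 in edgeR). HSPA13, an HSP70-like protein of microsomes, had 25.5 ± 5.83 against 37.2 ± 7.25 CPM (-0.54, SE 0.16, adjusted p = 0.135 in edgeR). DNAJC3 is an inhibitor of stress kinases and a J protein of the same compartment (-0.20, SE 0.09, adjusted p = 0.286 in edgeR). It was named after its values had been seen because its groups did not overlap (2.6% of all genes). SIL1, which exchanges the nucleotide of HSPA5, was at 0.62 (SE 0.22, adjusted p = 0.199 in edgeR). Named after their values had been seen, HYOU1 (-0.15), HSP90B1 (-0.16), DNAJB11 (-0.07), SEC63 (-0.20) and DNAJC25 (-0.42) of the same compartment had an adjusted p from 0.269 to 0.811 in edgeR. Of the cytosolic partners of HSPA8 and HSPA1A, DNAJA1, a J protein, was at -0.27 (SE 0.10, adjusted p = 0.201 in edgeR). HSPBP1, which releases nucleotide from HSP70, was at 0.55 (SE 0.20, adjusted p = 0.210 in edgeR). STUB1, the ubiquitin ligase that marks HSP70 and HSP90 clients for degradation, was at 0.31 (SE 0.12, adjusted p = 0.230 in edgeR). The groups did not overlap for STUB1 (2.6% of all genes).

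HSF1, the transcription factor that drives the heat shock genes, had 45.2, 38.8, 37.7, 41.7 and 44.7 CPM in Co, 50.4, 41.2, 49.7, 49.6 and 45.8 CPM in FeEV, and 54.6, 50.2, 50.4, 66.4 and 51.0 CPM in FoEV. All FoEV pools were above all Co pools, and 2.6% of all genes had no overlap between these treatments. The log2 fold change in FoEV vs. Co was 0.39 (SE 0.11, adjusted p = 0.131 in edgeR), while its classical targets HSPA1A and DNAJB1 differed by -0.11 and 0.05. Of the HSP90 partners, CDC37, which brings kinases to HSP90, was at 0.31 in FoEV vs. Co (SE 0.10, adjusted p = 0.179 in edgeR) and at 0.29 in FoEV vs. FeEV (SE 0.10, adjusted p = 0.496 in edgeR). In mitochondria, the protease subunit CLPP was at 0.56 (SE 0.16, adjusted p = 0.140 in edgeR) and GRPEL2, which exchanges the nucleotide of HSPA9, was at -0.46 (SE 0.17, adjusted p = 0.220 in edgeR). All 6 prefoldin subunits, which pass unfolded proteins to the cytosolic chaperonin TRiC, were higher in FoEV vs. Co, by 0.00 to 0.40 (52.3% of all genes were higher). VBP1 was the 1 with an unadjusted p under 0.05 there (0.40, SE 0.12, adjusted p = 0.140 in edgeR). All 6 were also higher in FeEV vs. Co (51.0% of all genes), which uses the same Co pools, and 3 of 6 in FoEV vs. FeEV. Of the 8 TRiC subunits, 2 were higher and 6 lower in FoEV vs. Co, by at most 0.15, with 0 at an unadjusted p under 0.05.

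In FeEV vs. Co, the genes with an unadjusted p under 0.05 were DNAJB9, given above, and HSPA6, a strictly inducible HSP70 gene. HSPA6 was near the limit of the filter, with 10 to 23 reads per Co library and 4 to 12 reads per FeEV library. Its level was 5.77 ± 1.56 CPM in Co and 2.74 ± 1.14 in FeEV (log2 fold change -1.07, SE 0.39, unadjusted p = 0.0123, adjusted p = 0.99995 in edgeR). The groups overlapped in reads but not in CPM (0.951% of all genes). The closest values were 4.10 CPM in Co replicate 5 (10 reads) and 4.08 CPM in FeEV replicate 2 (11 reads). In FoEV vs. FeEV, the genes were CLPP (0.53), CDC37 (0.29), SIL1 (0.50) and VBP1 (0.25) on the higher side and DNAJB14 (-0.31) and DNAJC10 (-0.26) on the lower, all with an adjusted p of at least 0.453 in edgeR. Outside the filtered table were 13 genes of the list, among them 7 of 9 further small heat shock protein genes. CRYAB, the lens and muscle relative of HSPB1, had 158 reads over the 15 libraries and CRYAA had 0.

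**Figure D5:**
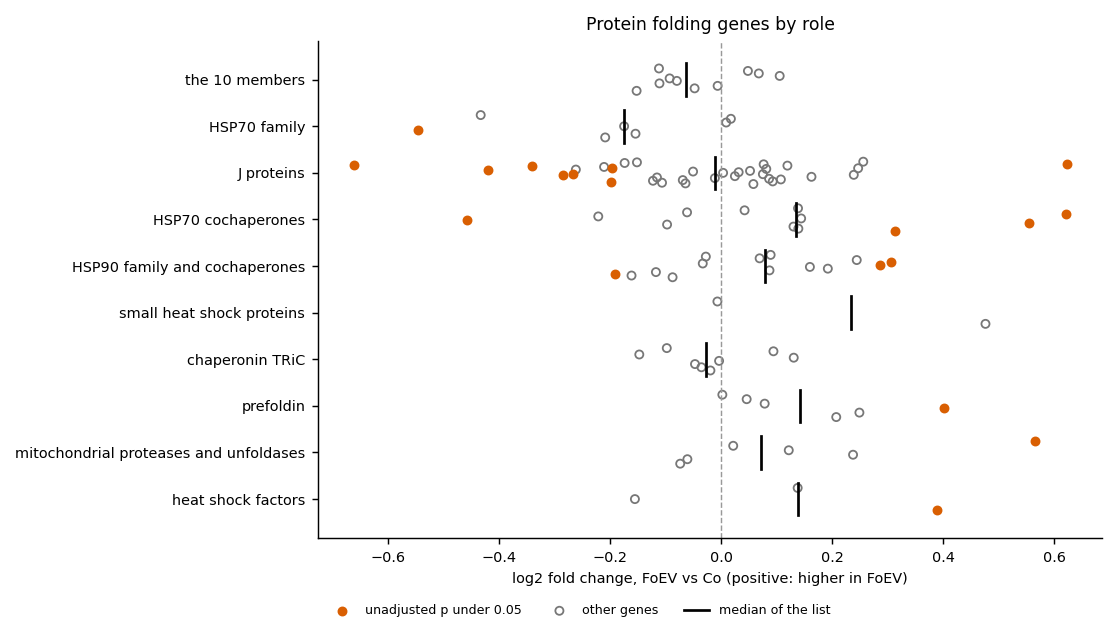
Log2 fold change in FoEV vs. Co (x axis, positive where FoEV is higher) of the 10 chaperone genes and of 93 further folding genes by role (rows), with vertical bars at the medians. Filled points have an unadjusted p under 0.05 in edgeR, as 15.1% of all genes do. There are 0 among the 10 genes, 8 among the J proteins, of which 7 are lower, and 19 in the list.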

How the data were processed

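RNA of 15 pools of bovine blastocysts, 5 per treatment, was sequenced by the authors as low-input total RNA. Per the submitters' processing notes, Trim Galore 0.4.3.1, HISAT2 2.1.0 and featureCounts 1.6.3 were used on ARS-UCD1.2 (bosTau9), whereas the study's methods name QuasR Qcount for the counting; how strand and multiply mapped reads were treated is not given in the sources used here. The authors deposited raw counts per gene, without normalization, for 34773 genes and for the 10832 genes kept by their filter on CPM. Whether molecular identifiers were read is not given in the sources used here, so counting errors are lower limits. Samples were grouped by their titles.

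The filtered counts were scaled by TMM and fitted in 1 model over all 15 libraries, with treatment as the only factor, with edgeR 4.0.16 in R 4.3.3 (estimateDisp, glmQLFit with robust=TRUE, glmQLFTest). P-values were adjusted by Benjamini-Hochberg over the 10832 genes, and an adjusted p under 0.05 was the threshold. The common biological coefficient of variation was 0.159. Alternatives were a likelihood ratio test with robust dispersions, as in the methods, DESeq2 1.42.0, its size factors, the unfiltered table, the filter stated in the methods, replicate blocks, fits of 2 treatments, counts thinned to 2117202 per library and each library left out. Correlations used log2 CPM with a prior count of 2, deviations from treatment means and 100000 permutations within treatments, two-sided, with numpy 2.4.6, pandas 2.3.3 and scipy 1.17.1 under Python 3.11.15. Figures were drawn with matplotlib 3.10.9. The fits were tested on simulated data.

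The 10 genes, the folding list and the tests were chosen with earlier results of these data known. The genes named are the 10, the genes of the list with an unadjusted p under 0.05 in each comparison (at most 12, by smallest p) and the 3 genes most like HSPA1A, HSPA8 and HSPD1. DNAJC3, HYOU1, HSP90B1, DNAJB11, SEC63, DNAJC25, CRYAB and CRYAA were added after values had been seen. Gene identifiers were matched to a later annotation (ARS-UCD2.0) for names only, and 10709 of 10832 matched. Coordinates and sequences were not used here.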

Additional observations from a re-analysis of the deposited data

Results flagged for a closer look

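Among the 24 chaperone and folding genes named in the comparisons, 72 groups of 5 libraries were examined for a library whose gap to its nearest neighbour takes up most of the range of its group. Chance marks about 1 in 20 such groups, and 3 were marked. DNAJB9 had 43.5 CPM in Co replicate 2, below the other Co pools (62.2 to 68.1 CPM). DNAJB9 had 28.7 CPM in FoEV replicate 4, below the other FoEV pools (38.4 to 42.4 CPM). HSF1 had 66.4 CPM in FoEV replicate 4, above the other FoEV pools (50.2 to 54.6 CPM). No group of the 10 chaperone genes was marked.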

How the results depend on the processing

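The count of chaperone genes past the adjusted threshold was 0 in all 3 comparisons under all 25 other settings. Of all genes, 0 to 311 passed in FoEV vs. Co under them. Without the libraries of number 4, a setting added after the data had been seen, the log2 fold change in FoEV vs. Co was 0.00942 for HSPE1 and -0.00620 for DNAJB1. It was -0.0290 for HSP90AA1 in FeEV vs. Co with a block on the library number of the descriptions. In FoEV vs. FeEV, HSPA5 was at 0.00890 with the robust dispersion test and at 0.00122 with the replicate block. With 1 library left out at a time, the log2 fold change in FoEV vs. Co ran from -0.47 to 0.0249 for HSPA1A, -0.17 to 0.0217 for HSPA5, -0.11 to 0.0619 for HSPE1 and -0.0511 to 0.14 for DNAJB1. In FeEV vs. Co it ran from -0.15 to 0.0131 for HSPA5 and -0.0266 to 0.0498 for HSP90AA1, and in FoEV vs. FeEV from -0.0929 to 0.0899 for HSPA5, -0.0830 to 0.00887 for HSPD1 and -0.0236 to 0.15 for HSPE1. The cause of these changes was not tested. The correlation of HSP90AA1 and HSP90AB1 was 0.0714 with thinned counts and ran from -0.311 to 0.154 with 1 library left out, and that of HSPD1 and HSPE1 ran from -0.00456 to 0.463. The correlation of HSPA1A and DNAJB1 lost its call by Pearson's r without the 2 farthest libraries (0.627) and without the libraries of number 4 (0.452).

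In FoEV vs. Co, 0 genes of the folding list passed in the quasi-likelihood test, beside 1 of all 10832 genes. With the robust dispersion test 5 passed (HSPA13, DNAJB9, VBP1, CLPP and HSF1), beside 311 of all genes. With DESeq2 1 passed (DNAJB9), beside 138 of all genes. The unfiltered table gave 2 (HSPA13 and DNAJB9), beside 173 of 25470. With 1 library left out, 0 to 1 passed, beside 0 to 58 of all genes. With 5 pairs per comparison, the deviations could not settle whether the same title number pairs the pools. They correlated at over 0.1 in 1 of 5 pairs of the same number in FoEV vs. Co, beside 7 of 20 pairs of different numbers. In FeEV vs. Co this held for 3 of 5 beside 6 of 20, and in FoEV vs. FeEV for 3 of 5 beside 3 of 20. With the replicate block, 1 gene of the list passed in FoEV vs. Co (DNAJB9, adjusted p = 0.0202 in edgeR), beside 57 of all genes. The correlation of HSP90AA1 and HSP90AB1 was 0.308 with that block, and no other call of the 10 genes or the list changed. The library number of the descriptions gave too few pairs to settle its pairing. Correlations were over 0.1 in 1 of 3 pairs in FoEV vs. Co, 1 of 3 in FeEV vs. Co and 1 of 4 in FoEV vs. FeEV. Pairs of different numbers had them in 7 of 22, 8 of 22 and 5 of 21, in the same order. With a block on this number, 0 genes of the list and 12 of all genes passed in FoEV vs. Co. HSPB1 in FoEV vs. FeEV kept an unadjusted p under 0.05 in all 25 settings and an adjusted p above it. DNAJB1 and HSPA1A had the fewest reads of the 10 genes. With thinned counts, HSPA1A was at -0.13 in FoEV vs. Co (-0.11 in the main fit) and had r = 0.848 with HSPA8. With 5 pools per treatment, the 95% intervals of HSPA1A are wider than 1 log2 unit.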
